A study of Mus musculus with 4 samples.

Results

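Genomic imprinting was followed through 35 imprinted genes of the mouse cochlea, taken by name as a set that covers the classical imprinted clusters, coding and noncoding. All 35 were found among the 37239 gene identifiers listed. The set holds 28 protein-coding and 7 noncoding genes in 15 clusters on 9 chromosomes, and 15 of the genes lie on chromosome 7. By textbook knowledge, 20 are made from the paternal allele, 11 from the maternal allele, and 4 (Gnas, Grb10, Ddc and Ube3a) from an allele that depends on the tissue. RNA came from the whole cochlea at postnatal day 8. The mutant mice were homozygous for the cello allele of Ikzf2 (Ikzf2cello/cello), and the comparison mice were their wild-type littermates (Ikzf2+/+), with 2 libraries per genotype. Ikzf2 encodes the Ikaros family transcription factor helios, which outer hair cells express, and the allele is carried in every cell of the animal. The libraries are called biological duplicates, but nothing says whether 1 cochlea or several entered each, so p-values measure only the spread between these 4 libraries.

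An imprinted gene is expressed mainly from 1 parental allele, and which allele that is depends on DNA methylation laid down in the egg or the sperm at an imprinting control region. Many imprinted genes act on growth, with paternally expressed genes such as Igf2 and Peg3 tending to favour it and maternally expressed genes such as Cdkn1c, Igf2r and Grb10 tending to restrain it. Several are high in the fetus and decline after birth, and others, such as Nnat, Snrpn, Ndn and Ube3a, are known for roles in neurons. These libraries measured total transcript per gene and not the parental allele, so they hold no measure of imprinting itself.

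For 18 of the 26 imprinted genes that could be tested, the genotypes differed by less than 0.25 on the log2 scale. Meg3 and Mirg, maternally expressed noncoding RNAs of the distal chromosome 12 cluster, stood higher in both cello libraries than in both wild-type libraries, at 2.81 times the wild-type mean for Meg3 and 2.0 times for Mirg. Nnat, which encodes the membrane proteolipid neuronatin, was lower in both cello libraries, and its wild-type mean was 1.87 times the cello mean. Peg3 and Snrpn stood higher in both cello libraries by smaller margins. H19 and Igf2, which with Cdkn1c had the most reads, differed more between the 2 cello libraries than between the genotypes.

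Of the 35 genes, 26 reached 1 CPM (reads of a gene per 1000000 counted alignments) in at least 2 libraries and were tested, among 14721 genes in all. Limma, fitted to log2(CPM + 0.5) over all of them with Benjamini-Hochberg adjustment, called 0 imprinted genes at an adjusted p of 0.05, as it called 0% of all genes. EdgeR on the recovered reads likewise called 0 imprinted genes and 0% of all genes. DESeq2 called 2 of them, Meg3 and Nnat, where it called 1.32% of all genes. At an unadjusted p under 0.05 in limma, 4 of the 26 were higher in cello (Meg3, Mirg, Peg3 and Snrpn), against 4.42% of all genes tested. Nnat alone was lower at that threshold, against 6.47% of all genes tested. In 7 of the 26 (Meg3, Mirg, Peg3, Snrpn, Sgce, Ddc and Gnas) both cello libraries lay above both wild-type libraries, which held for 16.9% of all genes. In 3 (Nnat, Cdkn1c and Slc22a18) both cello libraries lay below, which held for 28.7% of all genes, and in the other 16 the genotypes overlapped. Fold changes are given as cello minus wild type on the log2(CPM + 0.5) scale, which understates the change of low genes.

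**Figure D1:**
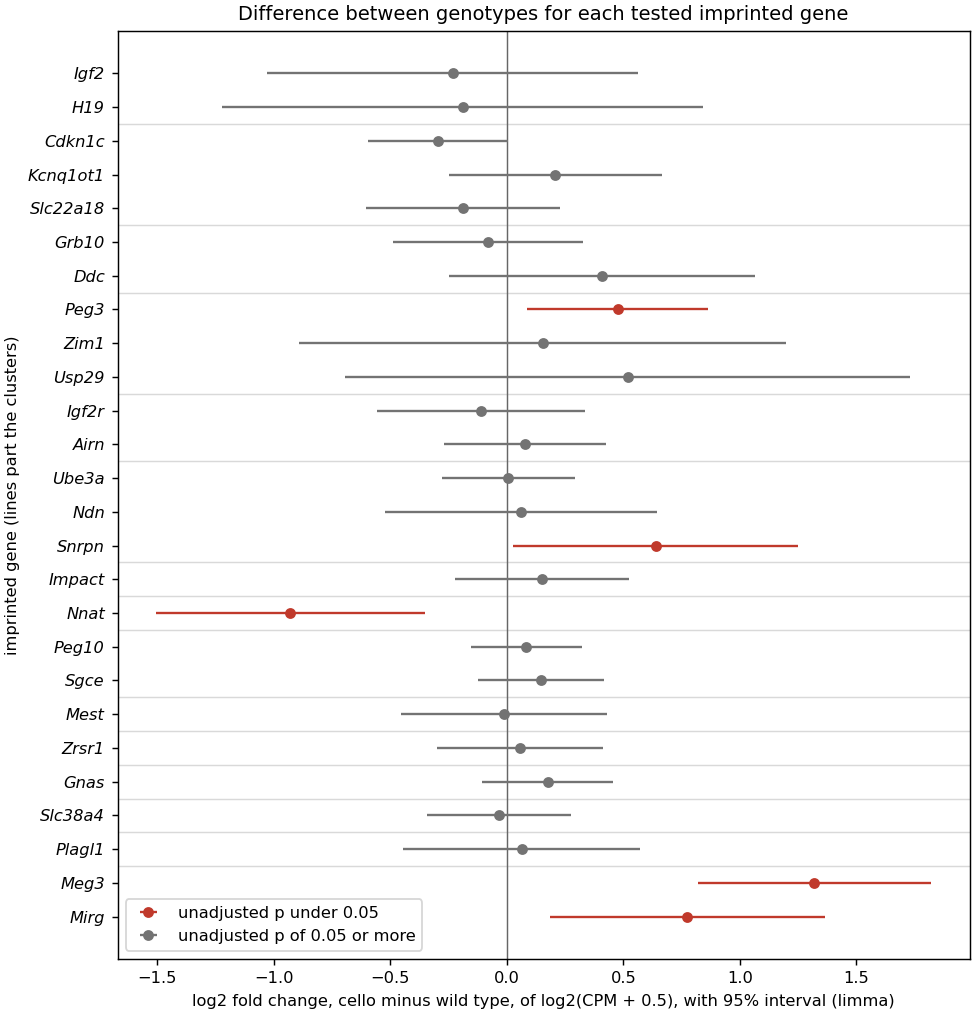
Log2 fold change (cello minus wild type, of log2(CPM + 0.5)) on the horizontal axis for each of the 26 tested imprinted genes, down the page by cluster. Points are limma estimates and bars are 95% intervals. Of these intervals 21 include 0, and the 5 drawn in red belong to Meg3, Mirg, Peg3, Snrpn and Nnat.

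The libraries held 42450937 and 47463910 counted alignments in cello, against 49719984 and 42152616 in wild type, so that 1 read was worth 0.0201 to 0.0237 CPM. Ikzf2 itself stood at 17.7 and 16.9 CPM in cello, against 22.9 and 18.5 CPM in wild type, and since cello is known as a point mutation that changes the protein, its transcript level does not check the genotype. The 6 outer hair cell markers and the 10 epithelial markers looked at were all detected, as in a cochlea. Their summed levels were 85.1 and 69.4 CPM in cello, against 219.4 and 219.4 CPM in wild type, for outer hair cells, and 732 and 782 CPM in cello, against 927 and 998 CPM in wild type, for epithelium. The 14 neuron markers summed to 965 and 1178 CPM in cello, against 374 and 825 CPM in wild type, and the 10 Schwann cell markers to 4043 and 4937.5 CPM in cello, against 1231 and 2847 CPM in wild type. The 10 bone markers summed to 3263 and 1221 CPM in cello, against 1572 and 1723 CPM in wild type, and lay at both extremes within cello. Median log2 fold changes were -1.14 for 4 skeletal muscle markers, 0.08 for 6 chondrocyte markers, -0.05 for 6 choroid plexus markers and 0.77 for 2 markers of central neurons. No marker of these 9 lists was at 0 over the 4 libraries. In bulk RNA, fewer cells of a type and less RNA per cell cannot be told apart.

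The distal chromosome 12 cluster (Dlk1, Rtl1, Meg3, Rian and Mirg) held the 2 largest log2 fold changes toward higher levels among the 26 tested genes. Meg3 (ENSMUSG00000021268, chromosome 12, 109541001 to 109571726 of GRCm38, plus strand, lincRNA) is a maternally expressed long noncoding RNA. It had 6.15 and 6.19 CPM in cello (261 and 294 reads), against 1.85 and 2.54 CPM in wild type (92 and 107 reads). The cello libraries were nearly equal and both lay above both wild-type libraries. The means were 6.17 ± 0.0325 CPM in cello and 2.19 ± 0.487 CPM in wild type (SD, n = 2 each). The log2 fold change was 1.32 (SE 0.20, 95% interval 0.82 to 1.82), and the adjusted p was 0.419 in limma, 0.451 in edgeR and 0.00092 in DESeq2. Over all alternative settings the adjusted p ran from 0.00092 (DESeq2) to 0.931 (limma without wild type 1). Leaving out 1 library at a time gave 1.13 to 1.51.

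Mirg (ENSMUSG00000097391, chromosome 12, 109729764 to 109749460, plus strand, lincRNA) lies downstream of Meg3 on the same strand and is the host of a run of microRNAs. It had 2.83 and 2.15 CPM in cello (120 and 102 reads), against 1.09 and 1.40 CPM in wild type (54 and 59 reads). As with Meg3, the lowest cello library lay above the highest wild-type library. The log2 fold change was 0.77 (SE 0.23, 95% interval 0.18 to 1.36), with an adjusted p of 0.429 in limma. The remaining genes of the cluster had no reads. Dlk1, a transmembrane protein related to Notch ligands, Rtl1, a retrotransposon-derived protein, and Rian, a noncoding host of small nucleolar RNAs, were at 0 in all 4 libraries. A count of 0 allows up to 0.0707 and 0.0632 CPM in the cello libraries, and up to 0.0603 and 0.0712 CPM in the wild-type libraries, for counting error only. What lies behind these 0 values is not shown by the files, and the bound holds for counted reads and not for expression. Rian is annotated between Meg3 and Mirg on the same strand. Only 3.42% of the exon bases of Rian and 8.40% of those of Rtl1 are shared with another annotated gene, and none of those of Dlk1. Of the exon bases of Meg3, 6.79% are shared with the antisense lincRNA Gm26906, which was also at 0.

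The Meg3 and Mirg transcripts carry microRNAs within their spans, all on the strand of the host. The RefSeq table (GRCm38.p6) holds 3 mature entries in Meg3 and 26 in Mirg. Mature microRNAs were not analysed here, since the libraries were scored per gene. The sequences are printed to show what these 2 RNAs contain, which had the largest log2 fold changes toward higher levels among the 26 tested genes. The first 3 are all the mature entries of Meg3 and the others are 5 of Mirg. Capitals mark the seed, bases 2 to 8. MiR-453 and miR-496a-5p share the seed GGUUGCC, the only seed that occurs more than once among the 56 mature entries inside the 35 genes.
miR-770-5p: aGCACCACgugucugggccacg
miR-770-3p: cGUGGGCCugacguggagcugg
miR-1906: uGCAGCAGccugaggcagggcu
miR-453: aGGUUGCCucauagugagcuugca
miR-496a-5p: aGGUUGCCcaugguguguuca
miR-134-5p: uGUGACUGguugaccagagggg
miR-382-5p: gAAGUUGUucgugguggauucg
miR-410-3p: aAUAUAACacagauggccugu

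Between genotypes, Meg3 and Mirg differed in the direction of most but not all nerve markers. Of the 14 neuron markers, 10 had higher and 4 lower values in cello, and for 7 the genotypes overlapped. Of the 10 Schwann cell markers, 9 had higher values in cello and 1 had a lower value. Within cello, Mirg was lower in cello 2 than in cello 1 (log2 gap -0.33) and Meg3 was level. Of the neuron markers, 13 of 14 were higher in cello 2 (median gap 0.29). Of the Schwann cell markers, 7 of 10 were higher in cello 2 (median gap 0.16). On the log2(CPM + 0.5) scale the median neuron marker stood 0.26 and 0.67 above its 4-library mean in cello, against -1.32 and 0.20 in wild type. The median Schwann cell marker stood at 0.55 and 0.69 in cello, against -1.13 and 0.04 in wild type. Both nerve lists were lowest in wild type 1, where Meg3 and Mirg were lowest too. The gap between the wild-type libraries was 1.54 for the median neuron marker, whereas Meg3 differed by 0.37 between them. Median log2 fold changes were 0.96 for the 14 neuron markers and 1.18 for the 10 Schwann cell markers, and the part of nerve content in the difference of Meg3 and Mirg was not tested.

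**Figure D2:**
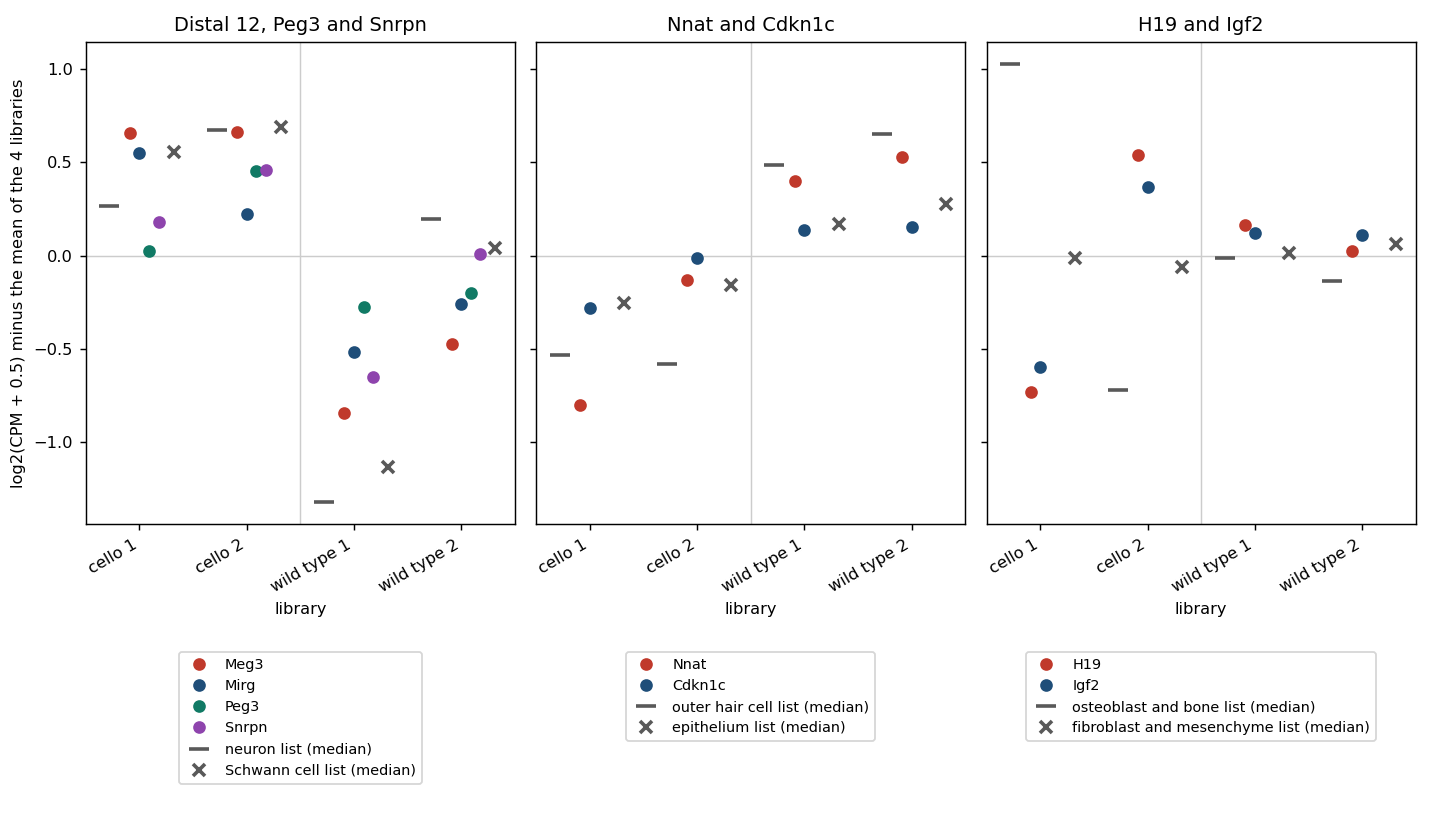
Levels per library as log2(CPM + 0.5) minus the mean of the 4 libraries (vertical axis), with coloured points for imprinted genes and grey marks for the median of a marker list. Meg3 and Mirg lie above 0 in both cello libraries and below 0 in both wild-type libraries (left), Nnat lies below 0 in both cello libraries (middle), and H19 and Igf2 lie at both extremes within cello (right).

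Nnat (ENSMUSG00000067786, chromosome 2, 157560078 to 157562522, plus strand, protein coding) is paternally expressed and sits in an intron of Blcap. It had 17.9 and 28.8 CPM in cello, against 41.8 and 45.7 CPM in wild type. Both cello libraries lay below both wild-type libraries, and the cello libraries differed by more than the wild-type ones. The means were 23.4 ± 7.69 CPM in cello and 43.8 ± 2.76 CPM in wild type (SD, n = 2 each). The log2 fold change was -0.93 (SE 0.23, 95% interval -1.50 to -0.35), with an adjusted p of 0.419 in limma, 0.451 in edgeR and 0.028 in DESeq2. The adjusted p had a range over the alternative settings of 0.028 (DESeq2) to 0.931 (limma without wild type 1). The log2 fold change was -0.59 without cello 1, the lowest library, and -1.26 without cello 2. Blcap, the host gene, had 37.7 and 39.9 CPM in cello, against 43.0 and 44.7 CPM in wild type, a log2 fold change of -0.18. Nnat was lower in cello, as were all 6 outer hair cell markers (median log2 fold change -1.17) and all 10 epithelial markers (median -0.43). The part of these cell types in the level of Nnat was not tested.

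In the proximal chromosome 7 cluster the abundant gene was Peg3 (ENSMUSG00000002265, chromosome 7, 6703892 to 6730431, minus strand, protein coding), a paternally expressed zinc finger protein. It had 99.9 and 134.7 CPM in cello, against 81.2 and 85.5 CPM in wild type. The groups did not overlap, and most of the margin came from cello 2. The means were 117.3 ± 24.7 CPM in cello and 83.3 ± 3.06 CPM in wild type (SD, n = 2 each), and the log2 fold change was 0.48 (SE 0.15, 95% interval 0.09 to 0.86), with an adjusted p of 0.437 in limma. Without cello 2 the log2 fold change was 0.26. Usp29, a ubiquitin specific peptidase transcribed away from Peg3, had 1.08 and 1.73 CPM in cello, against 0.342 and 1.54 CPM in wild type. Zim1, a maternally expressed zinc finger gene, had 0.919 and 2.57 CPM in cello, against 1.59 and 1.19 CPM in wild type. Both of these low genes overlapped between genotypes, with log2 fold changes of 0.52 (SE 0.48) for Usp29 and 0.15 for Zim1.

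The central chromosome 7 cluster, the region of Prader-Willi and Angelman syndromes in humans, held Snrpn, Snurf, Ndn, Magel2 and Ube3a. Snrpn (ENSMUSG00000102252, chromosome 7, 59982495 to 60140219, minus strand, protein coding) encodes the spliceosomal protein SmN and is paternally expressed. It had 25.1 and 30.6 CPM in cello, against 13.9 and 22.3 CPM in wild type. Every cello library lay above every wild-type library, and the gap within wild type was larger than the distance between the nearest libraries of the 2 genotypes. The means were 27.8 ± 3.86 CPM in cello and 18.1 ± 5.92 CPM in wild type (SD, n = 2 each), with a log2 fold change of 0.64 (SE 0.24, 95% interval 0.03 to 1.25) and an adjusted p of 0.452 in limma. Without wild type 1 it was 0.31, and without wild type 2 it was 0.97. Wild type 1 was also the library with the lowest nerve markers, whose part in the level of Snrpn was not tested.

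Neighbouring transcripts of the same strand bear on how the reads of Snrpn were assigned. All exon bases of Snurf, the upstream reading frame of the same transcript, are shared with Snrpn and with Gm38393, both on its strand. By this annotation Snurf thus has no exon base of its own, and the deposited values hold an entry for alignments ambiguous between genes. Snurf was at 0 in all 4 libraries, which is therefore no measure of its expression. Of the exon bases of Snrpn, 27.3% are shared with Gm38393, which had 9.07 and 16.2 CPM in cello, against 7.62 and 8.14 CPM in wild type. Snhg14, the long noncoding RNA that runs on from Snrpn and overlaps Ube3a from the opposite strand, had 23.1 and 29.9 CPM in cello, against 16.5 and 17.1 CPM in wild type, a log2 fold change of 0.63. Snrpn, Gm38393 and Snhg14 each stood higher in both cello libraries, and the split of reads among Snrpn, Snurf and Gm38393 is uncertain.

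The other genes of the cluster overlapped between genotypes. Ndn, the MAGE family protein necdin, had 48.2 and 70.9 CPM in cello, against 48.2 and 65.3 CPM in wild type, so each genotype held 1 low and 1 high library. Ube3a, an E3 ubiquitin ligase that is maternally expressed in neurons, had 76.7 and 93.0 CPM in cello, against 82.5 and 85.8 CPM in wild type, a log2 fold change of 0.01. Magel2, an intronless MAGE family gene close to Ndn, was not tested. It had 0 and 33 reads in cello, against 3 and 12 reads in wild type, so reads came mainly from 1 library of each genotype. Of the exon bases of Ube3a, 8.74% are shared with Snhg14, and the strand setting of the counting is not given in the sources used here.

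Promoters are printed for the 5 genes at an unadjusted p under 0.05, 1 window for each. RefSeq gives 2 windows for Meg3 and 4 for Snrpn. For these genes the window printed is the one that holds the word described next, so its match there is no finding. The Mirg start and the Snrpn start shown lie inside the annotated span of each gene. RefSeq (GRCm38.p6) windows of 300 bases, from 250 before to 50 after a start, were used for 28 of the 35 genes. The hexamer TGCCGC, or GCGGCA on the other strand, is the core that ZFP57, a zinc finger protein that protects methylated imprinting control regions, binds when methylated. The 2 words are the same site read from either strand. It was searched on both strands and is in capitals. The windows lie at chr12:109540746-109541045, plus strand, at chr12:109734731-109735030, plus strand, at chr2:157559828-157560127, plus strand, at chr7:60005150-60005449, minus strand, and at chr7:6730370-6730669, minus strand.
Meg3 promoter: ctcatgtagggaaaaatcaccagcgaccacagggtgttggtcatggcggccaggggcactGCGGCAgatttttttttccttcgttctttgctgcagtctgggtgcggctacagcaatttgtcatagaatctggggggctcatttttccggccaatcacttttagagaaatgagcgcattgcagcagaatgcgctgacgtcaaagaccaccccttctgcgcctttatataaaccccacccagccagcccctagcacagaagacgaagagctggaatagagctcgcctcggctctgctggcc
Mirg promoter: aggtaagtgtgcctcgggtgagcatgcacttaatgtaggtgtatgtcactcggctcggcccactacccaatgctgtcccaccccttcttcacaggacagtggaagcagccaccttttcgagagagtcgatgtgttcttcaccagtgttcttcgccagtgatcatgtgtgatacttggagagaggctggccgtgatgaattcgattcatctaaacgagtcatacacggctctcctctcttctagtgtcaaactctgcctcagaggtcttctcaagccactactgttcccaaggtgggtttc
Nnat promoter: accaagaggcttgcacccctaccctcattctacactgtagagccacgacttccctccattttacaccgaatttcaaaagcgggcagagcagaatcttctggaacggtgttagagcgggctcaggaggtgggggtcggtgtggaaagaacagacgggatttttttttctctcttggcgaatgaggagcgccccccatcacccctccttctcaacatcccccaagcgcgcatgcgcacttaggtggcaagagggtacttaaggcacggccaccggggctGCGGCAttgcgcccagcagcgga
Snrpn promoter: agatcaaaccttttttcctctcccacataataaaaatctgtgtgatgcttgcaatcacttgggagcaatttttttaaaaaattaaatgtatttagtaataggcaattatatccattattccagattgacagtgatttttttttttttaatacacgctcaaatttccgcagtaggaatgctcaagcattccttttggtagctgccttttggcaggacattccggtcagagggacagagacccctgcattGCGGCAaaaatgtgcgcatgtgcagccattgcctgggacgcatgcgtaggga
Peg3 promoter: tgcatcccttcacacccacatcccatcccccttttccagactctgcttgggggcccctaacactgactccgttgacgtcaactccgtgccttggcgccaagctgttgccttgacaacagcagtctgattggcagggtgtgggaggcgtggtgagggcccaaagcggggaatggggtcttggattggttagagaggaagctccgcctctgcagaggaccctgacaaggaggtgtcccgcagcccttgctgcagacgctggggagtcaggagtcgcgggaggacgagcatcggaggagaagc

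The word was present once in each printed window of Meg3, Nnat and Snrpn and was not present in those of Mirg and Peg3. The other Meg3 window and the other 3 Snrpn windows held 0 matches. The window of Usp29 shares 263 bases with the Peg3 window, on the opposite strand, which shows how close the 2 starts lie. Of the 28 imprinted genes with a window that was used, 9 held the word in at least 1 window (32.1%): Meg3, Nnat, Snrpn, Snurf, Igf2, Plagl1, Grb10, Zim1 and Mest, with Snurf and Snrpn sharing a window. It was in 13.05% of the 27025 genes with a window. Counted by window, it was in 10 of 45 windows of imprinted genes (22.2%) and in 11.6% of all 32851 windows. In this count a gene with several starts enters several times. The 10 include 2 nearly coincident windows of Mest, and the window shared by Snrpn and Snurf counted for each gene. Among genes that were tested for expression, the share was 38.1% (8 of 21) for imprinted genes and 22.2% for all 11149. No window was used for the tested genes H19, Peg10, Sgce, Cdkn1c and Impact, so the shares of imprinted genes leave them out. A match is a description of letters in a window and not a binding site, and no methylation or binding was measured.

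At the distal chromosome 7 growth locus, H19 and Igf2 share enhancers and are expressed from opposite alleles. H19 (ENSMUSG00000000031, chromosome 7, 142575529 to 142578143, minus strand, lincRNA) is a maternally expressed noncoding RNA. It had 218 and 525 CPM in cello, against 405 and 367 CPM in wild type. Igf2 (ENSMUSG00000048583, chromosome 7, 142650766 to 142666816, minus strand, protein coding), the paternally expressed insulin-like growth factor 2, had 292 and 569.7 CPM in cello, against 481 and 477 CPM in wild type. For both genes cello 1 was the lowest and cello 2 the highest of the 4 libraries. The log2 gap between the cello libraries was 1.27 for H19 and 0.96 for Igf2, and the genotype differences were -0.19 (SE 0.41) and -0.23 (SE 0.31). Leaving out cello 1 turned the direction of both, to 0.45 for H19 and 0.25 for Igf2, while leaving out cello 2 gave -0.82 for H19 and -0.71 for Igf2. Of the exon bases of Igf2, 62.8% are shared with the annotated gene Gm49394 on the same strand, which is not among the identifiers listed. With genes that are listed, 1.71% are shared.

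Although each gene varied, the ratio of H19 to Igf2 varied less, at 0.746 and 0.922 in cello, against 0.842 and 0.770 in wild type. The 10 bone markers ran the opposite way within cello. All 10 were lower in cello 2 than in cello 1, with a median gap of -1.75, whereas the fibroblast and mesenchyme markers summed to 5639.5 and 4930.5 CPM in cello, against 5236 and 5194 CPM in wild type. The 6 choroid plexus markers summed to 78.4 and 115 CPM in cello, against 104 and 102 CPM in wild type, and 5 of them were higher in cello 2 than in cello 1. The part of tissue content in the levels of H19 and Igf2 was not tested. H19 is also the host of miR-675, whose mature forms are printed from RefSeq (GRCm38.p6) with the seed in capitals, because H19 is the noncoding RNA with the highest level here. Their own levels were not measured.
miR-675-5p: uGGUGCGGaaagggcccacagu
miR-675-3p: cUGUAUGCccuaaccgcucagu

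Genotype differences smaller than those of H19 and Igf2 were found for Igf2r, Airn and Grb10. Igf2r, the maternally expressed receptor that clears IGF2, had 106.5 and 74.4 CPM in cello, against 94.8 and 97.7 CPM in wild type, and its 2 cello libraries lay on both sides of the wild-type pair. Airn, the paternally expressed antisense RNA that silences Igf2r in cis, had 9.19 and 9.67 CPM in cello, against 9.53 and 8.30 CPM in wild type. Grb10, an adaptor that restrains insulin and IGF receptor signalling, had 91.2 and 124.9 CPM in cello, against 116.9 and 109.2 CPM in wild type. Their log2 fold changes were -0.11 for Igf2r, 0.08 for Airn and -0.08 for Grb10. Ddc, dopa decarboxylase, which lies beside Grb10, had 2.21 and 1.43 CPM in cello, against 1.11 and 1.35 CPM in wild type. The log2 fold change of Ddc was larger, at 0.41 (SE 0.26). Its groups did not overlap, and cello 2 lay close to wild type 2.

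Cdkn1c (ENSMUSG00000037664, chromosome 7, 143458339 to 143461050, minus strand, protein coding) encodes the cyclin-dependent kinase inhibitor p57, which holds cells out of the cell cycle and is maternally expressed. It had 240.2 and 289.8 CPM in cello, against 322 and 326 CPM in wild type. Both cello libraries were lower and the wild-type pair was nearly equal. The log2 fold change was -0.30 (SE 0.12), with an unadjusted p of 0.052 and an adjusted p of 0.460 in limma. It was -0.16 without cello 1. Of its exon bases, 30.7% are shared with the antisense gene Gm44732, which is not among the identifiers listed, and none are shared with a listed gene. Kcnq1ot1, the paternally expressed noncoding RNA that silences this cluster in cis, had 23.3 and 24.0 CPM in cello, against 24.3 and 17.1 CPM in wild type, and overlapped. Slc22a18, an organic cation transporter family gene, had 4.26 and 5.01 CPM in cello, against 5.15 and 5.55 CPM in wild type, a log2 fold change of -0.19. The 2 genes of this cluster known from the placenta were below the limit for testing. Ascl2, a transcription factor of trophoblast, had 10 and 11 reads in cello, against 4 and 3 reads in wild type, and Phlda2, which restrains placental growth, had 3 and 3 reads in cello, against 3 and 4 reads in wild type.

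The tested genes of the remaining clusters lay within 0.25 of 0 on the log2 scale. Peg10, a retrotransposon-derived protein, had 31.3 and 28.4 CPM in cello, against 28.4 and 27.8 CPM in wild type. Its divergent neighbour Sgce, epsilon-sarcoglycan, had 24.1 and 27.7 CPM in cello, against 23.2 and 23.4 CPM in wild type, with both cello libraries above. Mest, a hydrolase-fold protein of the endoplasmic reticulum, had 20.5 and 27.6 CPM in cello, against 22.0 and 26.2 CPM in wild type, and 23.1% of its exon bases are shared with Copg2 on the opposite strand. Plagl1, the transcription factor Zac1, which is known to act on other imprinted genes, had 8.83 and 12.3 CPM in cello, against 9.09 and 10.9 CPM in wild type. For Mest and Plagl1 both genotypes held 1 lower and 1 higher library of about the same levels.

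Gnas, the locus of the stimulatory G protein alpha subunit, had 13.1 and 12.9 CPM in cello, against 11.3 and 11.6 CPM in wild type, and the groups did not overlap. Of its exon bases, 13.1% are shared with Gm20721 and 8.83% with Nespas, both on the opposite strand. Gm20721 had under 0.25 CPM in every library. Whether reads were counted by strand is not given, and a loss of shared reads from Gnas or from these partners was not tested. Nespas, the antisense RNA of Gnas, had 2 and 5 reads in cello, against 2 and 5 reads in wild type, and was below the limit for testing. Zrsr1, a splicing factor gene inside an intron of Commd1, had 15.5 and 13.9 CPM in cello, against 12.9 and 15.5 CPM in wild type. The amino acid transporter gene Slc38a4 had 10.3 and 10.4 CPM in cello, against 10.2 and 11.01 CPM in wild type. Impact, a regulator of the GCN2 kinase, had 50.1 and 43.9 CPM in cello, against 47.8 and 37.2 CPM in wild type. These last 3 overlapped between genotypes. Asb4, an ankyrin repeat and SOCS box protein, had 43 and 25 reads in cello, against 37 and 42 reads in wild type, and was below the limit for testing.

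**Figure D3:**
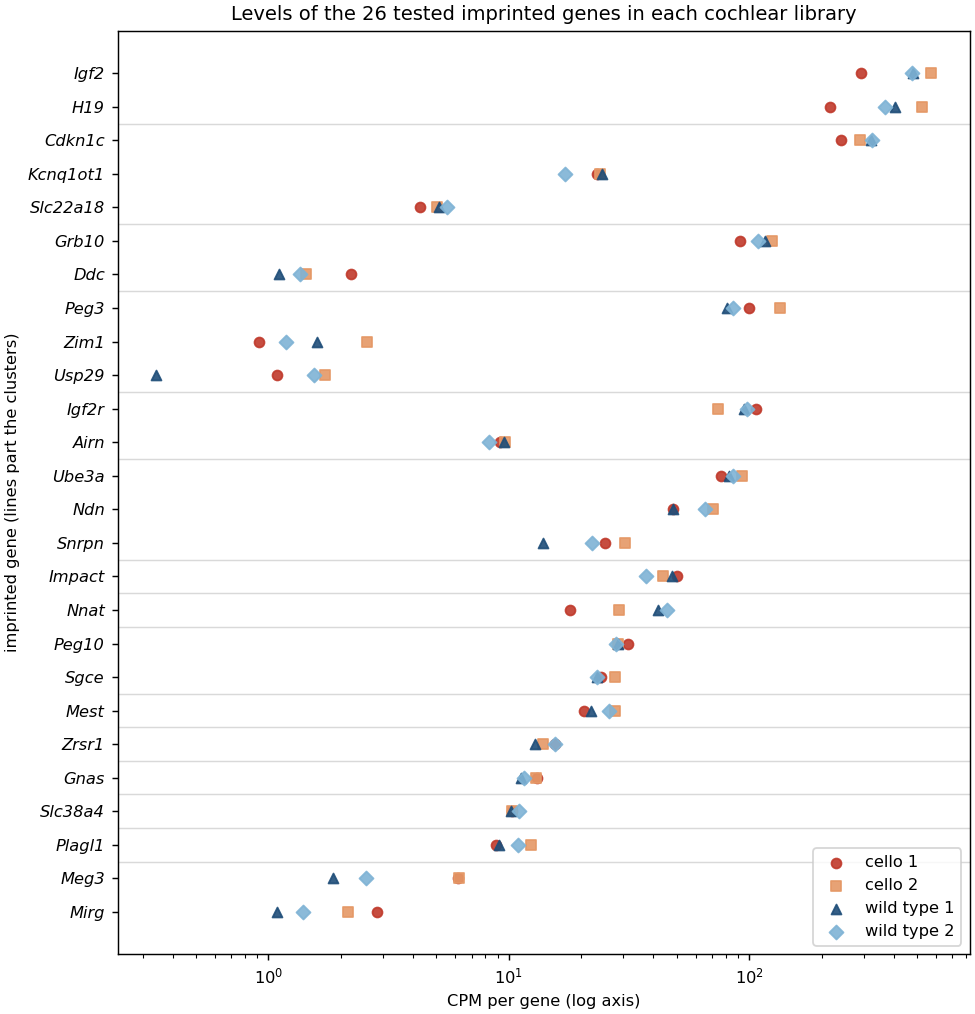
CPM per gene (horizontal log axis) of each tested imprinted gene in the 4 libraries, with genes down the page by cluster. Circles and squares are cello 1 and 2, and triangles and diamonds are wild type 1 and 2. H19, Igf2 and Cdkn1c lie to the right, over 100 CPM in every library, and 6 genes have a mean under 5 CPM.

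Compared per length, as CPM per kilobase of annotated exon, H19 and Cdkn1c headed the set with means of 154 and 144 over the 4 libraries. H19 spanned 88.6 and 214 in cello, against 165 and 149 in wild type, and Cdkn1c 118 and 142 in cello, against 158 and 160 in wild type, so their order was not fixed between libraries. Igf2 came next at a mean of 79.5. On the same scale Nnat stood at a mean of 18.4, Ndn at 15.7, Grb10 at 12.2, Snrpn at 10.6 and Igf2r at 10.03. Nnat had 9.80 and 15.7 in cello, against 22.9 and 25.0 in wild type, while Ndn had 13.05 and 19.2 in cello, against 13.05 and 17.7 in wild type. Nnat thus lay below Ndn in each cello library and above it in each wild-type library. The low end of the tested genes held Mirg at 0.256, Kcnq1ot1 at 0.238, Meg3 at 0.231, Zim1 at 0.194 and Usp29 at 0.0649. Exon lengths join all annotated isoforms, which lowers the value of genes with long rare forms. H19, Igf2 and Cdkn1c together held 52.1% and 63.7% of the CPM of all 35 genes in cello, against 63.7% and 62.0% in wild type.

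Counts by parental allele and by coding status gave no single direction. Of the 15 tested paternally expressed genes, 11 had higher and 4 lower values in cello (median log2 fold change 0.08). Of the 7 maternally expressed genes, 3 had higher and 4 lower values, with a median of -0.11, and this group holds both Meg3 and Cdkn1c. The 5 noncoding genes had 4 higher values and a median of 0.21, and the 21 coding genes had 13 higher values and a median of 0.06. The median over the 26 genes was 0.07, beside -0.03 over all 14721 genes tested. No test of these counts was made.

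The cello libraries differed from each other at many imprinted genes. In 19 of 26 (73.1%) the level in cello 2 was above that in cello 1, beside 55.5% of all genes tested, and the median log2 gap was 0.24, beside 0.03 over all genes. In wild type, 18 of 26 (69.2%) were higher in wild type 2 than in wild type 1, beside 53.5% of all genes. The gap between the cello libraries was larger than the genotype difference for 15 of 26 imprinted genes (57.7%), beside 55.8% of all genes. H19, Zim1 and Igf2 had the widest gaps within cello, and Meg3, Gnas and Slc38a4 were among those with the narrowest.

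**Figure D4:**
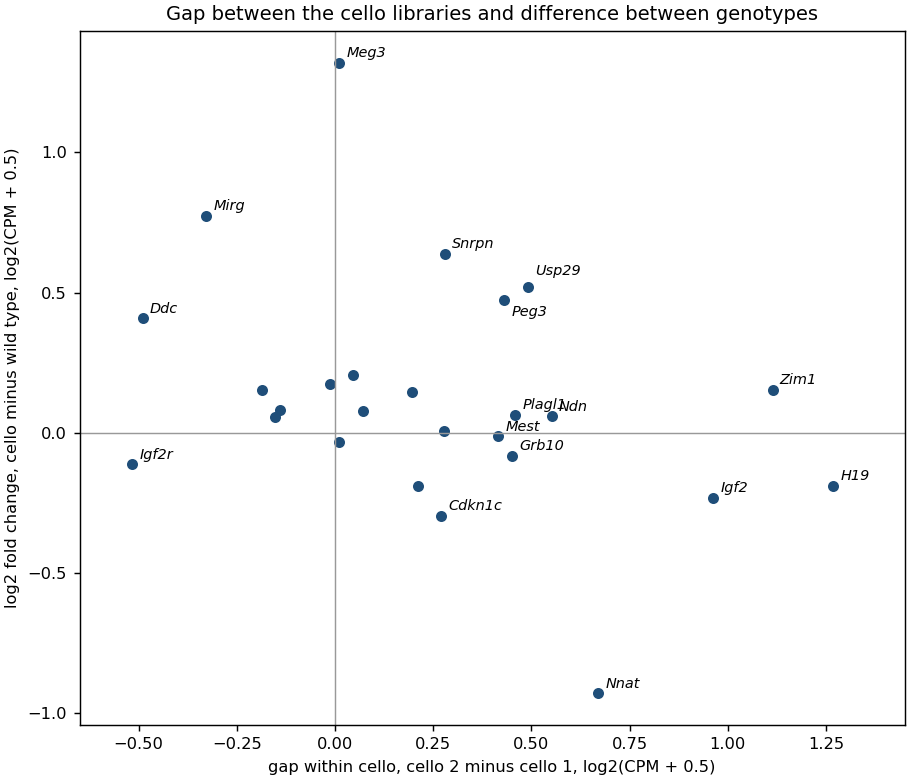
Gap between the cello libraries (horizontal axis, cello 2 minus cello 1) and genotype difference (vertical axis, cello minus wild type), both in log2(CPM + 0.5), with 1 point for each of the 26 tested imprinted genes. Meg3 combines a gap near 0 with a difference of 1.32, and H19 combines a gap of 1.27 with a difference of -0.19.

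Genes around the imprinted set were looked at in 2 lists. Of 18 genes that set or keep imprints, among them the DNA methyltransferases and the proteins that protect methylated control regions, 16 were tested, of which 7 had higher and 9 had lower values in cello (median log2 fold change -0.03), and 0 were past an unadjusted p of 0.05 in limma. The smallest p belonged to Tet2, a methylcytosine dioxygenase (0.24), Zfp445, a zinc finger protein that keeps imprints (0.17), Trim28, the corepressor that ZFP57 recruits (-0.22), Dnmt1, the maintenance methyltransferase (-0.17), and Dnmt3a, a de novo methyltransferase (-0.15), each value being a log2 fold change. Dppa3, an oocyte factor, was at 0. Of 18 genes of the insulin-like growth factor axis, 17 were tested, with 7 higher and 10 lower values and a median of -0.04.

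Within that axis, 2 of 17 genes were higher and 1 was lower at an unadjusted p under 0.05 in limma, beside 4.42% and 6.47% of all genes tested. Pappa, the protease that cleaves IGF binding proteins, had 16.3 and 21.7 CPM in cello, against 5.65 and 11.4 CPM in wild type, a log2 fold change of 1.17 (SE 0.34), or 0.69 without wild type 1. Igfbp6, a binding protein with a preference for IGF2, had 24.3 and 20.3 CPM in cello, against 15.2 and 17.9 CPM in wild type, a log2 fold change of 0.42. Irs1, an adaptor below the insulin and IGF1 receptors, had 25.4 and 25.5 CPM in cello, against 31.4 and 35.9 CPM in wild type, a log2 fold change of -0.39. The groups did not overlap for these 3 genes, and none of them passed adjustment. Over the 17 genes, both cello libraries lay above both wild-type libraries in 2 and below in 4, beside 16.9% and 28.7% of all genes tested. Igfbp4 and Igf1 were also lower in both cello libraries, with log2 fold changes of -0.21 and -0.22.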

How the data were processed

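Whole-cochlea RNA was made into TruSeq libraries, per the labels. The submitters' processing notes name TopHat and GRCm38. Which program counted reads, with which annotation, and whether by strand, is not given in the sources used here. The deposited values are CPM per gene, which the authors scaled to all counted alignments, as the sums show. Of these, 70.9% and 70.0% lay in genes in cello, against 71.0% and 72.8% in wild type. The 5 entries that name no gene stayed out of the tests, and 3.40% to 3.53% of alignments were ambiguous between genes. Values were whole multiples of 1 read for 100% of values (tolerance 0.001), so whole reads were recovered. Of 37239 identifiers, 36504 matched GENCODE M21, and 0 other columns of samples were left out.

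The filter kept genes that reached 1 CPM in 2 or more of 4 libraries. In R 4.3.3, limma 3.58.1 fitted log2(CPM + 0.5) by genotype, allowing the variance to follow the mean. Tests were two-sided and adjusted after Benjamini-Hochberg at 0.05. On the recovered reads edgeR 4.0.16 called 0 and DESeq2 1.42.0 called 195 genes, with 1713 adjusted p undefined, those of Mirg, Usp29, Zim1 and Ddc among them. Limma had 1603 genes at an unadjusted p under 0.05. The steps were tested on simulated data. Tables and plots used Python 3.11.15, pandas 2.3.3 and matplotlib 3.10.9. All 35 genes are accounted for. Those that did not overlap at an unadjusted p under 0.05 are given with errors, and up to 5 genes by smallest p from each other gene list are named. The members and lists were chosen with earlier results of these data known. Blcap and the genes that share exons with a member were added after their values were seen.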

Additional observations from a re-analysis of the deposited data

How the results depend on the processing

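The limits lie in the number of libraries, and in low counts for the genes under 5 CPM. Over the other settings (pseudocounts, filters, scalings, limma without trend or robust, both count tests, the replicate block and leaving out each library) 431 of 462 values of single imprinted genes kept the side of 0 reported. Nnat was at an unadjusted p under 0.05 in 18 of 18 settings, Meg3 in 17, Peg3 in 16, Mirg in 15 and Snrpn in 13, where a gene removed by a filter counts as not reaching it. The count of genes past adjustment was 195 with DESeq2, 2 of them imprinted, and 0 to 90 when 1 library was left out, the 90 without wild type 2. Of the imprinted genes, 2 were lower at an unadjusted p under 0.05 with DESeq2 (Nnat and Cdkn1c). Without cello 2, which leaves 1 cello library, log2 fold changes were -0.82 for H19, -0.71 for Igf2, -0.31 for Grb10 and -0.43 for Cdkn1c. With a mean CPM of at least 5, which removes Mirg and Meg3, 2 were higher, and 2 to 4 with 1 library left out. The median over the imprinted genes ran from -0.027 without wild type 1 to 0.18 without cello 1. H19 turned to 0.45 without cello 1, over a range of -0.82 to 0.45. Mest and Slc38a4, both close to 0, changed sign under TMM and median-of-ratios scaling and in both count tests, and Mest also under quantile normalization and with CPM over reads in genes.

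Equal replicate numbers are not said to mark a litter, and the correlation of same-numbered deviations over genes was 0.133 in 2 pairs. With the replicate block 2 imprinted genes were lower at an unadjusted p under 0.05, Nnat and Cdkn1c, and 0 genes passed adjustment. The share of all genes lower at that threshold was not counted there either.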

Other observations

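Beyond the 35 genes, a list of 36 other imprinted genes was matched for 35 and tested for 29. In cello 16 had higher and 13 lower values, a median log2 fold change of 0.07. In limma 3 higher (Nap1l5, Zdbf2 and Ppp1r9a) and 1 lower (Kcnq1) were at an unadjusted p under 0.05, beside 4.42% and 6.47% of all genes. Nap1l5, a nucleosome assembly protein family gene, had 33.1 and 39.1 CPM in cello, against 8.09 and 23.2 CPM in wild type, a log2 fold change of 1.35 (SE 0.47). Without wild type 1 it was 0.62, and wild type 1 was also the library with the lowest nerve markers. Zdbf2, a paternally expressed gene, had 10.8 and 14.7 CPM in cello, against 8.97 and 8.37 CPM in wild type, a log2 fold change of 0.52, or 0.30 without cello 2. Peg13, a noncoding RNA, had 52.4 and 60.2 CPM in cello, against 25.7 and 47.3 CPM in wild type, a log2 fold change of 0.68, or 0.24 without wild type 1. Its unadjusted p in limma was 0.062, so it was not among the 3 higher genes. Kcnq1, the potassium channel gene of the Kcnq1ot1 domain that strial cells need, had 100.9 and 92.3 CPM in cello, against 114.8 and 137.8 CPM in wild type, a log2 fold change of -0.38, or -0.25 without wild type 2. Ppp1r9a, the neuronal scaffold neurabin, differed by 0.26. For these 5 genes both cello libraries lay on the same side of both wild-type libraries, and the part of nerve content was not tested. Over the 29 tested genes, both cello libraries lay above in 10 and below in 6, beside 16.9% and 28.7% of all genes.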
